A study of Mus musculus with 12 samples.

Results

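The 7 miRNAs mmu-miR-487b, mmu-miR-494, mmu-miR-431*, mmu-miR-127, mmu-miR-379, mmu-miR-410 and mmu-miR-411, written below without the species prefix, belong to the imprinted Dlk1-Dio3 region of mouse chromosome 12. They are 7 of the 577 mouse miRNAs on the array, and were picked by their names in the scanner files. They were measured on 12 one-colour Agilent miRNA arrays, 3 for each of 4 wild-type female BALB/c lines derived from spontaneous mouse breast cancer. By the labels 67NR, 168FARN and 4TO7 are non-metastatic and 4T1 is metastatic, and the submitters compared them to find miRNAs of the separate steps of metastasis. No line was treated, each stands for 1 tumour cell line rather than for a class of tumours, and every array received 100 ng of Trizol-extracted total RNA. The labels call the 3 arrays of a line repeats without saying whether each is a culture of its own, and p-values therefore speak for the variation among these arrays, which may be technical.

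In the Dlk1-Dio3 region the copy inherited from the father expresses the protein-coding genes Dlk1, Rtl1 and Dio3, and the copy inherited from the mother expresses long non-coding RNAs and one of the densest groups of miRNA genes in the mammalian genome. The maternal miRNAs are best known from placenta, embryo and brain, and from the quality of pluripotent stem cells, in which silencing of the maternal transcripts shuts off the miRNAs together. In the RefSeq gene table the hairpins of miR-431 and miR-127 lie inside the span of Rtl1, to whose transcript they are antisense. Those of miR-379, miR-411, miR-494 and miR-487b lie between the non-coding genes Rian and Mirg, and miR-410 lies inside Mirg. The miRNAs from miR-379 to miR-410 form the larger of the region's groups.

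The mature sequences give the seeds of the members and show whether another mature miRNA holds the same probe target. RefSeq (build GRCm38.p6) held the arm on the array for 6 of the 7 members, all of them on the plus strand, and they are given 5′ to 3′ with the seed, bases 2 to 8 that pair with target mRNAs, in capitals, in the order of the chromosome.
miR-431* (miR-431-3p, chr12:109590502-109590523): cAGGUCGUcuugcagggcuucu
miR-127 (miR-127-3p, chr12:109592888-109592909): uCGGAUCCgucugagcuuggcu
miR-379 (miR-379-5p, chr12:109709065-109709085): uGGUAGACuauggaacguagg
miR-411 (miR-411-5p, chr12:109710190-109710210): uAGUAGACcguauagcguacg
miR-494 (miR-494-3p, chr12:109715367-109715388): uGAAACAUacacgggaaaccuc
miR-410 (miR-410-3p, chr12:109743764-109743784): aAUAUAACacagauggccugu
The 6 sequences have 6 distinct seeds, so by seed they do not form a family. The closest pair is miR-379 and miR-411, whose seeds differ by G2A (positions counted from the 5′ end, the base of miR-379 first). The seed of miR-494 occurs in no other of the 1738 mature sequences of the table. The probes read the 3′ part of a miRNA: the 2 probes of miR-494 pair with its last 14 and 15 bases, and the 4 probes of miR-431* with its last 14 to 17. No other mature sequence in the table contains the shortest probe target of any of these 6 members. Only exact matches were looked for, so binding of near matches or of other RNA was not checked. miR-487b, whose arm had no entry, could not be checked at all. In the array's own annotation (build mm9) the targets of the read members lie at chr12:110828717-110828733 for miR-431*, chr12:110953584-110953598 for miR-494 and chr12:110965596-110965613 for miR-487b.

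The members fell into 3 kinds: miR-494 and miR-487b were well above background on all 12 arrays, miR-431* was well above background on the 3 arrays of 67NR and on no other, and miR-127, miR-379, miR-410 and miR-411 on none. A miRNA counted as well above background, called "read" from here on, where the scanner software had marked more than 0.5 of the kept spots of at least 1 of its probes. Signals are the software's background-subtracted processed signals, and the lowest signal read on an array was 12.6 to 18.5 signal units. All 4 unread members had signals around 0, as the values of their brightest probes show. miR-127, which is antisense to Rtl1 like miR-431, gave line means between -0.51 (4TO7) and 0.99 (168FARN) signal units, with its highest single array at 1.80 (4T1 repeat 2). The line means of miR-379, which opens the larger group, lay between -1.94 and -1.41. Those of miR-410, which closes it, lay between -1.40 and -0.78. Those of miR-411 lay between 0.24 and 0.65. Over these 4 miRNAs and 12 arrays the signals ran from -3.39 to 1.80, below the lowest signal read on any array, so no line could be ranked above another for them, and a low level cannot be told apart from none.

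The rest of the region behaved like the 4 unread members. The array carries 73 miRNAs of the region, spread over 180.1 kb: 71 by name and, by the position of their targets, miR-882 and miR-544. Only 3 of the 73 (4.11%) were read on any array, and these were the members miR-494, miR-487b and miR-431*. Of the 504 miRNAs outside the region 250 (49.6%) were read on at least 1 array. The signals of the region's other 66 miRNAs ran from -5.83 to 11.9 signal units. The highest belonged to miR-134, known from rodent neurons as a regulator of dendritic spines. Its signal was 11.9, 7.63 and 6.30 on the 3 arrays of 67NR and -2.77 to -0.37 on the 9 arrays of the other lines. All of these lay below the lowest signal read on any array (12.6). On repeat 3 of 67NR the 6.30 was also below the 95th percentile of the negative controls (7.05). miR-134 was picked as the highest of the 66, and the share of miRNAs that separate 67NR in this way was not counted. The gene-level detection flag of the same software marked miR-134 on 1 array, 67NR repeat 2, and added no other miRNA of the region.

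**Figure D1:**
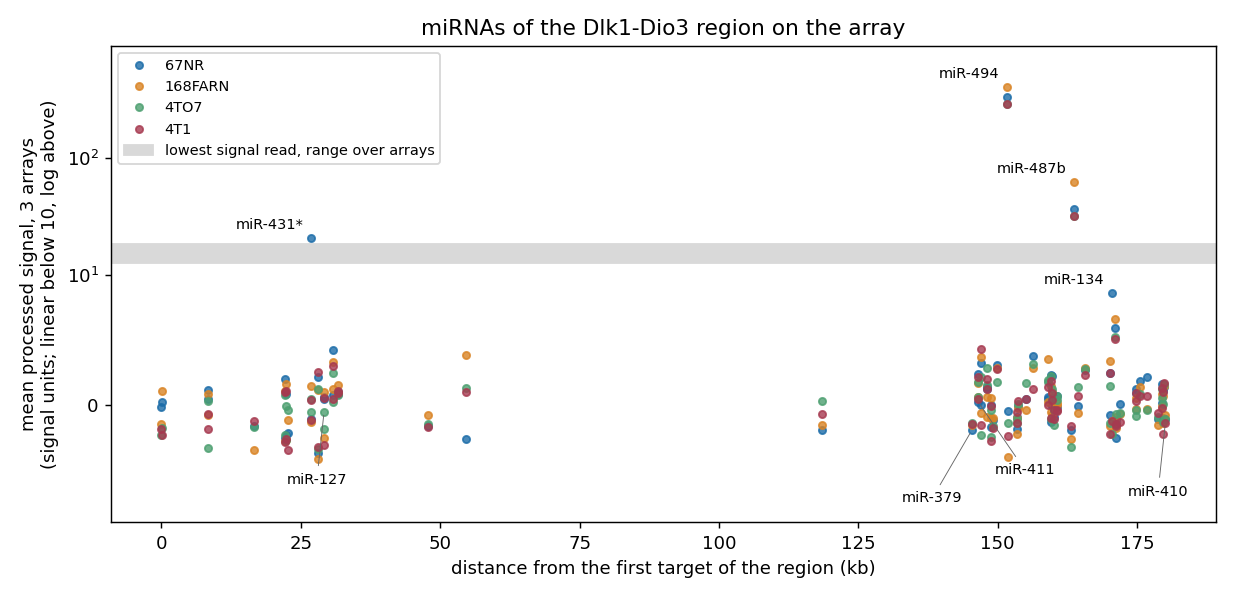
Mean processed signal of the 73 miRNAs of the Dlk1-Dio3 region (vertical axis, signal units, linear below 10 and logarithmic above) against the distance of their array targets from the first target of the region (horizontal axis, kb), with 1 point for each line (mean of 3 arrays). The grey band marks the lowest signals read on the 12 arrays (12.6 to 18.5); miR-494 and miR-487b lie above it in all 4 lines, miR-431* in 67NR, and the unread miRNAs below it.

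The arrays differed in brightness in a way that bears on every comparison of the lines. The 75th percentile of the 170 probes read on all 12 arrays, by which each array was divided, lay in 67NR between 358 and 459.6 signal units, in 4TO7 between 600 and 671, in 4T1 between 889 and 1136 and in 168FARN between 791 and 1213. Control probes named hur_5 read between 180 and 207 on 67NR but between 1.25 and 6.36 on the other 9 arrays. The 3 arrays of 67NR and repeat 1 of 168FARN share one slide, and the other 8 arrays share another. No epithelial marker miRNA (the miR-200 family, miR-141 and miR-205) of 6 was read on all 3 arrays of any line, although the labels call the cells breast cancer; the summed signal of the 6 was 21.1 to 37.3 on 67NR and -7.86 to 1.78 elsewhere. Of 6 mesenchymal and fibroblast markers 4 were read on all arrays of 168FARN (summed signal 464 to 746) and 1 in each other line (46.6 to 125.7). Of 4 neural markers 3 were read in every line, with a summed signal of 302 to 399 on 67NR and 102 to 238 on the others. Stem cell markers (10, of the miR-290 and miR-302 groups) had 1 read in 67NR and 0 elsewhere. The 2 endothelial markers summed to 101 to 130 on 67NR, 40.7 to 52.1 on 4T1, 23.4 to 29.9 on 4TO7 and 2.67 to 5.77 on 168FARN. Haematopoietic (6) and muscle (4) markers had 1 read each in 168FARN, with sums of 44.4 to 61.5 and 23.8 to 44.9, and none in the other lines, with sums of at most 19.9 and 11.2. The part of brightness, slide and these markers in the differences below was not tested, beyond the other scalings and the slide fits given.

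miR-494 was read by both of its probes on every array. Before scaling its brighter probe gave 358, 347 and 288 signal units on the arrays of 67NR, 502, 379.4 and 317 on 168FARN, 266, 295 and 295 on 4TO7, and 326, 305 and 228 on 4T1. Before scaling the ranges of all pairs of lines overlapped except those of 168FARN and 4TO7, and the means of 4TO7 (285 ± 16.7, SD, n = 3) and 4T1 (286 ± 52.0) differed by less than either SD. After division by the percentile the levels (log2 of the scaled signal, on which 0 is the percentile itself) were -0.36, -0.37 and -0.31 on the arrays of 67NR and -1.27, -1.29 and -1.32 on those of 168FARN. They were -1.17, -1.06 and -1.19 on 4TO7, and -1.75, -1.89 and -1.97 on 4T1. On this scale no 2 lines overlapped: 67NR was highest (mean -0.35 ± 0.03), then 4TO7 (-1.14 ± 0.07), 168FARN (-1.29 ± 0.02) and 4T1 (-1.87 ± 0.11). Such separation was common. Depending on the pair of lines, 38.7 to 48.4% of the 225 tested miRNAs lay wholly below and 26.2 to 39.1% wholly above.

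miR-487b had 2 probes as well, and the brighter one, with a target of 18 bases, was read on every array. It gave 41.3, 35.1 and 33.4 signal units on 67NR, 64.0, 61.6 and 61.6 on 168FARN, 29.7, 35.7 and 30.7 on 4TO7, and 33.4, 34.9 and 27.5 on 4T1. Before scaling 168FARN therefore lay above all 9 other arrays, and the other 3 lines overlapped. The share of miRNAs that separate 168FARN in this way before scaling was not counted. Scaled levels (log2) were -3.48, -3.67 and -3.42 on the arrays of 67NR and -4.24, -3.91 and -3.68 on those of 168FARN. They were -4.34, -4.10 and -4.45 on 4TO7, and -5.04, -5.03 and -5.01 on 4T1. After scaling 4T1 was lowest on all 3 arrays and 67NR highest, while 168FARN and 4TO7 overlapped. The shares of tested miRNAs that separate pairs of lines are those given for miR-494. 67NR averaged -3.52 ± 0.13, 168FARN -3.95 ± 0.28, 4TO7 -4.30 ± 0.18 and 4T1 -5.03 ± 0.01 (SD, n = 3 each).

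miR-431*, the 3′ arm of the miR-431 hairpin, gave 22.5, 18.7 and 20.8 signal units on 67NR with its brightest probe. It gave 0.97, 2.53 and 0.82 on 168FARN, 1.07, 0.94 and -0.70 on 4TO7, and 0.11, 0.81 and 0.19 on 4T1. The signal on 67NR was close to the lowest that could be read, but all 4 probes separated the line from the rest: they gave 12.4 to 22.5 on 67NR and -2.31 to 3.41 on the other 9 arrays. Probes with targets of 14 and 15 bases were read on all 3 arrays of 67NR, those of 16 and 17 bases on 1 each. The targets overlap, so the probes are not independent readings. The share of miRNAs that separate 67NR in this way was not counted. On repeat 1 of 168FARN, which shares the slide of 67NR, the 4 probes gave 0.97 to 2.22. On repeat 3 of 4T1 1 spot of the third probe read 346 signal units while the other 4 spots read -2.80 to 7.22; the software had marked it as an outlier and it was left out.

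**Figure D2:**
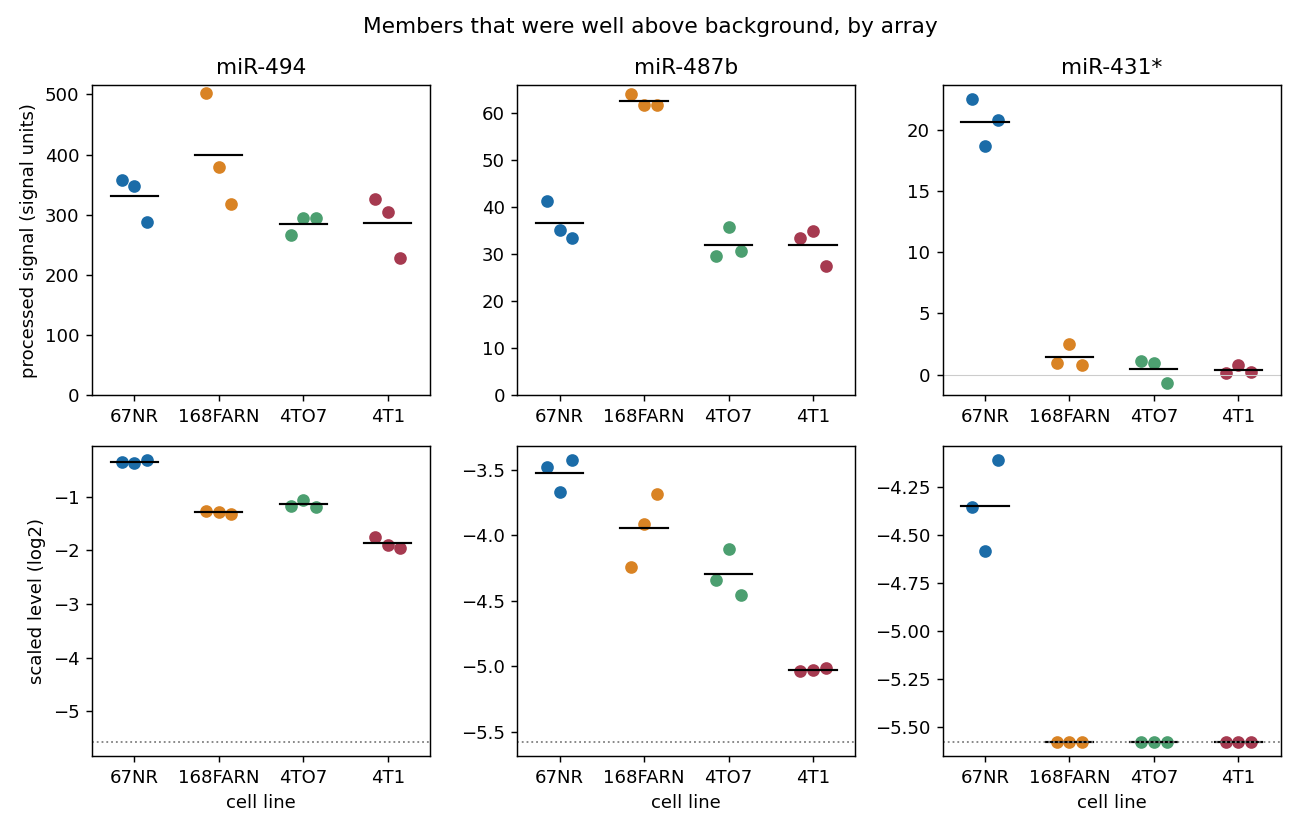
Processed signal before scaling (upper row, signal units) and scaled level (lower row, log2) of miR-494, miR-487b and miR-431* on the 3 arrays of each line; points are arrays, black lines are means, and the dotted line is the floor of -5.58 that replaced lower values. The line order for miR-494 and miR-487b differs between the rows, while miR-431* is separate in 67NR in both.

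The comparison of 4T1 with the mean of the 3 non-metastatic lines asks which miRNAs set the metastatic line apart. All 3 members that could be tested were lower in 4T1, beside 59.6% of the 225 tested miRNAs called lower and 87.6% called in either direction (limma over all 12 arrays, Benjamini-Hochberg adjusted p under 0.05). miR-494 was lower by a log2 difference of -0.94 ± 0.04 (SE, adjusted p = 2.70e-09) and miR-487b by -1.10 ± 0.11 (adjusted p = 2.00e-06), with all 3 arrays of 4T1 below the 9 others for both, as they were for 8.89% of the tested miRNAs. The difference of miR-431* was -0.41 ± 0.07 (adjusted p = 0.00026), but 4T1, 168FARN and 4TO7 all sat at the floor, so it came from 67NR alone. miR-431* also passed the filter through 67NR only, so this p-value is not evidence of a difference. The median of the 3 was -0.94, against -0.34 for all tested miRNAs, and from the lowest difference upward miR-487b ranked 30 and miR-494 ranked 43 of 225. Without the arrays of 67NR miR-487b differed by -0.87 and miR-494 by -0.62, and both still passed the test. With slide as a term in the fit they differed by -1.30 and -0.93. Only 168FARN lies on both slides, so that term rests on its 1 array on the first slide. With no scaling miR-494 differed by -0.23 and did not pass (adjusted p = 0.141), while miR-487b differed by -0.39 and passed. miR-431* did not pass with no scaling (-0.18, adjusted p = 0.0814) or with the floor doubled (-0.08, adjusted p = 0.378), and with the second probe of miR-487b, described below, that miRNA did not pass either.

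Against 67NR all 3 tested members were lower in 4T1, beside 47.6% of tested miRNAs called lower. The difference was -1.52 ± 0.05 for miR-494 (adjusted p = 1.31e-10) and -1.50 ± 0.13 for miR-487b (adjusted p = 6.48e-07), against a median of -0.05 over all tested miRNAs. miR-431* was at least 2.35-fold higher in 67NR than in 4T1, where it was not read (adjusted p = 1.10e-07). The bound sets the level in 67NR against the floor. On the arrays of 4T1 the floor stood at 18.6 to 23.8 signal units, above the lowest signals read there (12.6 to 16.3). The size of this bound depends on scaling and floor: the log2 difference was -1.23 as scaled here, -0.54 with no scaling, -0.53 with median ratio scaling and -0.23 with the floor doubled (adjusted p = 0.0478). When outlier spots were kept, this call was lost (adjusted p = 0.365). miR-431* was tested only because it was read in 67NR, and the arrays of every other line sat at the floor without any spread. Its p-values against 67NR are therefore not evidence of a difference. No slide holds both lines. With no scaling the differences of miR-494 (-0.22) and miR-487b (-0.20) did not pass. With its second probe miR-487b differed by 0, both lines being at the floor; before scaling that probe was not read in 67NR (8.34 signal units on average) and was read on all 3 arrays of 4T1 (18.1).

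Against 168FARN 2 of 3 tested members were lower in 4T1, beside 39.6% of tested miRNAs called lower; miR-431* was at the floor in both lines. miR-487b differed by -1.08 ± 0.13 (adjusted p = 1.70e-05) and miR-494 by -0.58 ± 0.05 (adjusted p = 1.67e-06), with a median of 0 over all tested miRNAs. Both passed under 6 of 6 ways of scaling or background correction, between -1.10 and -0.33 for miR-487b and between -0.60 and -0.34 for miR-494. Within the second slide alone they differed by -1.23 and -0.56 and passed. The second probe of miR-487b, described below, gave -0.14 and did not pass (adjusted p = 0.402).

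Against 4TO7, the third non-metastatic line, 2 of 3 tested members were again lower in 4T1, beside 35.6% of tested miRNAs called lower. Both differed by -0.73, with an SE of 0.05 for miR-494 (adjusted p = 4.46e-07) and 0.13 for miR-487b (adjusted p = 0.000579), and they ranked 25 and 26 from the lowest of 225. All 6 arrays lie on the second slide. With no scaling the differences were -0.01 and -0.01, and neither passed (adjusted p = 1 for each), whereas the other 5 ways of scaling or correction left both called. With no scaling the median of all tested miRNAs was 0.34, and miR-431*, not read in either line, differed by 0.

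The comparisons among the non-metastatic lines share arrays with those above and with each other. In 4TO7 against 67NR all 3 tested members were lower, beside 48% called lower: miR-494 by -0.79 ± 0.05 (adjusted p = 5.93e-08), miR-487b by -0.77 ± 0.13 (adjusted p = 0.000196), and miR-431* at least 2.07-fold higher in 67NR (adjusted p = 1.07e-07). When each array was scaled by the median ratio of its bright probes, the first 2 differed by 0.01 and 0.03 and did not pass, and miR-431* by -0.53. With no scaling miR-431* differed by -0.54, and with the floor doubled by -0.23 (adjusted p = 0.0475). In 168FARN against 67NR all 3 were lower, beside 48% called lower: miR-494 by -0.95 ± 0.05 (adjusted p = 9.86e-09), miR-487b by -0.42 ± 0.13 (adjusted p = 0.0108), and miR-431* at least 2.35-fold higher in 67NR (adjusted p = 9.57e-08). The difference of miR-431* was -0.54 with no scaling, -0.53 with the median ratio and -0.23 with the floor doubled (adjusted p = 0.0437). In both comparisons miR-431* was tested only because it was read in 67NR, so the limit on its p-values given above applies. For miR-487b the scaling set the direction here: under the 6 ways it was called lower in 2, called higher in 2, and ran from -0.77 to 0.78. For miR-494 4 of the 6 called it lower, and with no scaling it differed by 0.25 without passing. Within the first slide, with 1 array of 168FARN, miR-494 differed by -0.93 and miR-487b by -0.72, and both passed; the spread of the lone array is there taken from the arrays of 67NR.

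In 4TO7 against 168FARN 1 of 3 tested members was lower and 1 higher, beside 39.1% called lower and 35.1% called higher. miR-487b differed by -0.35 ± 0.13 (adjusted p = 0.0319) and its arrays overlapped; miR-494 differed by 0.16 ± 0.05 (adjusted p = 0.0224). Neither call held when repeat 3 of 168FARN was left out (-0.22 and 0.14). With no scaling miR-494 turned to -0.46. Within the second slide miR-487b differed by -0.50 and passed, and miR-494 by 0.17 and did not (adjusted p = 0.0866).

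**Figure D3:**
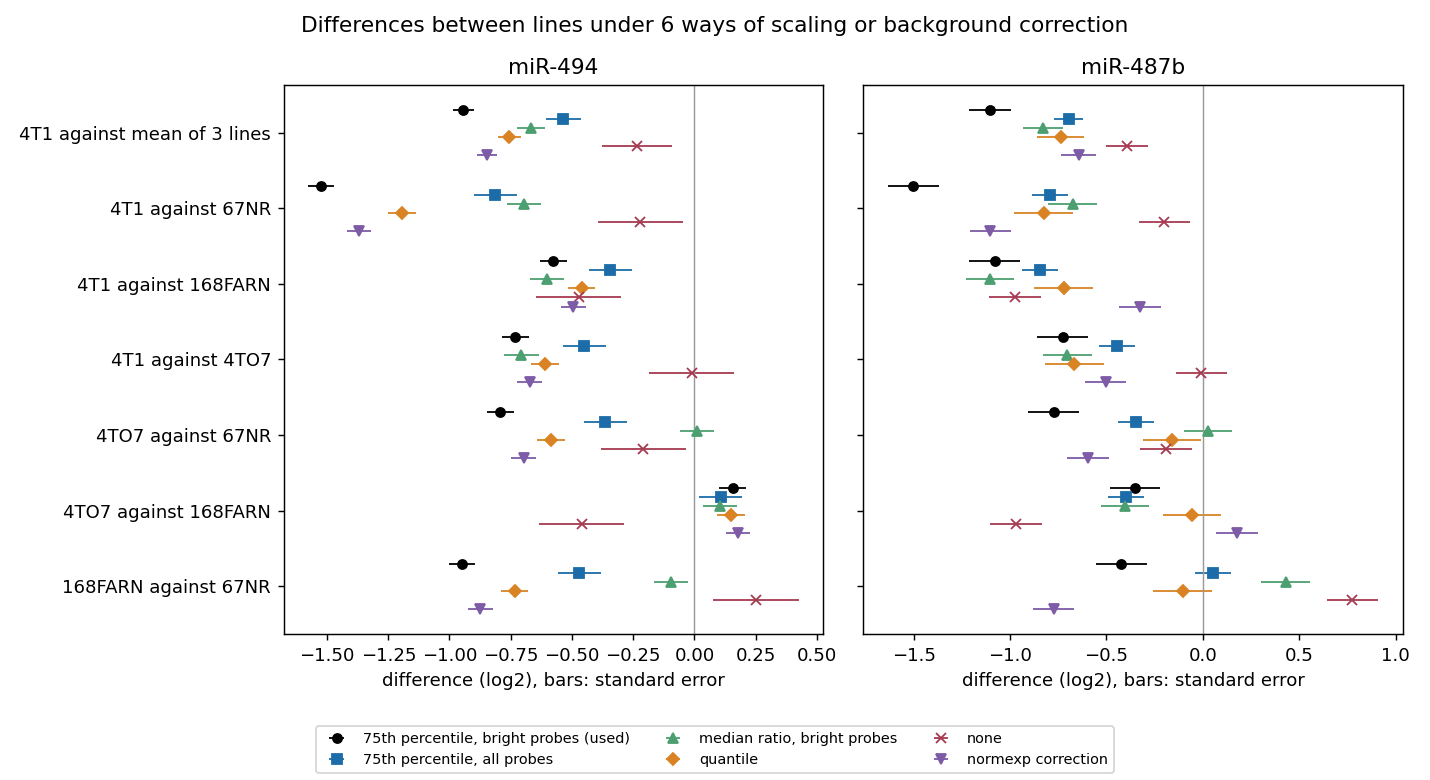
Log2 differences of miR-494 (left) and miR-487b (right) in 7 comparisons under 6 ways of scaling or background correction; points are differences, bars are standard errors, and the vertical line is 0. In 4T1 against 168FARN all 6 points lie below 0 for both miRNAs, while in 168FARN against 67NR the points of miR-487b run from -0.77 to 0.78.

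The contrast of miR-494 with miR-487b within each array is the same for any division of an array by 1 factor, although the sizes of 2 probes cannot be compared as amounts. The level of miR-494 minus that of miR-487b (log2) was 3.18 ± 0.11 in 67NR, 3.16 ± 0.11 in 4TO7 and 3.16 ± 0.12 in 4T1 (SD, n = 3 each). In 168FARN it was 2.65 ± 0.30, with arrays from 2.37 to 2.97, all below the lowest of the other 9 at 3.05. How many other pairs of miRNAs separate 168FARN in this way was not counted. The separation holds for the brighter probe of miR-487b only. Its second probe, described below, averaged (log2 before scaling) 4.29 in 168FARN, 4.05 in 4TO7, 4.17 in 4T1 and 3.04 in 67NR, where it was not read. miR-494 averaged 8.62, 8.16, 8.14 and 8.37. With the second probe the contrast was thus larger in 168FARN than in 4TO7 and 4T1, and smaller than in 67NR. Settings that do not divide by 1 factor changed the contrast. Between 4T1 and 168FARN it differed by 0.50 with each of the 4 factor scalings, by 0.26 with quantile normalization and by -0.17 with normexp. Between 4T1 and 67NR it differed by -0.02 with the factor scalings, by -0.37 with quantile normalization and by -0.27 with normexp. None of these differences was tested.

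The probes of a member did not always give the same picture of the lines. The second probe of miR-494 gave 116 to 151 signal units on 67NR and averaged 177 on 168FARN, 123 on 4TO7 and 125 on 4T1, and the ratio of the brighter to the second probe ran only from 2.26 ± 0.03 to 2.48 ± 0.10 over the line means. For miR-487b the second probe, with a target 1 base shorter, averaged 8.34 ± 1.61 signal units on 67NR, 19.7 ± 2.97 on 168FARN, 16.7 ± 2.84 on 4TO7 and 18.1 ± 0.75 on 4T1. Before scaling the second probe was therefore lowest in 67NR. On the same measure the brighter probe averaged 36.6 in 67NR, 62.4 in 168FARN, 32.0 in 4TO7 and 31.9 in 4T1. Its ranges in 67NR, 4TO7 and 4T1 overlapped. In 168FARN and 4T1, where both probes were read on all arrays, the ratio of the brighter to the second was 3.22 ± 0.52 and 1.76 ± 0.15. The second probe was read on no array of 67NR and on 2 of 3 of 4TO7. After scaling it was at the floor in 67NR and 4T1 and averaged -5.24 ± 0.28 in 4TO7. With it, the difference of miR-487b between 4T1 and the mean of the other lines was -0.16 (adjusted p = 0.178), and that between 4TO7 and 67NR was 0.33 (adjusted p = 0.0326). The calls for miR-487b thus rest on 1 probe, while those for miR-494 have 2. The targets of these 2 overlap, so they are not independent readings.

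**Figure D4:**
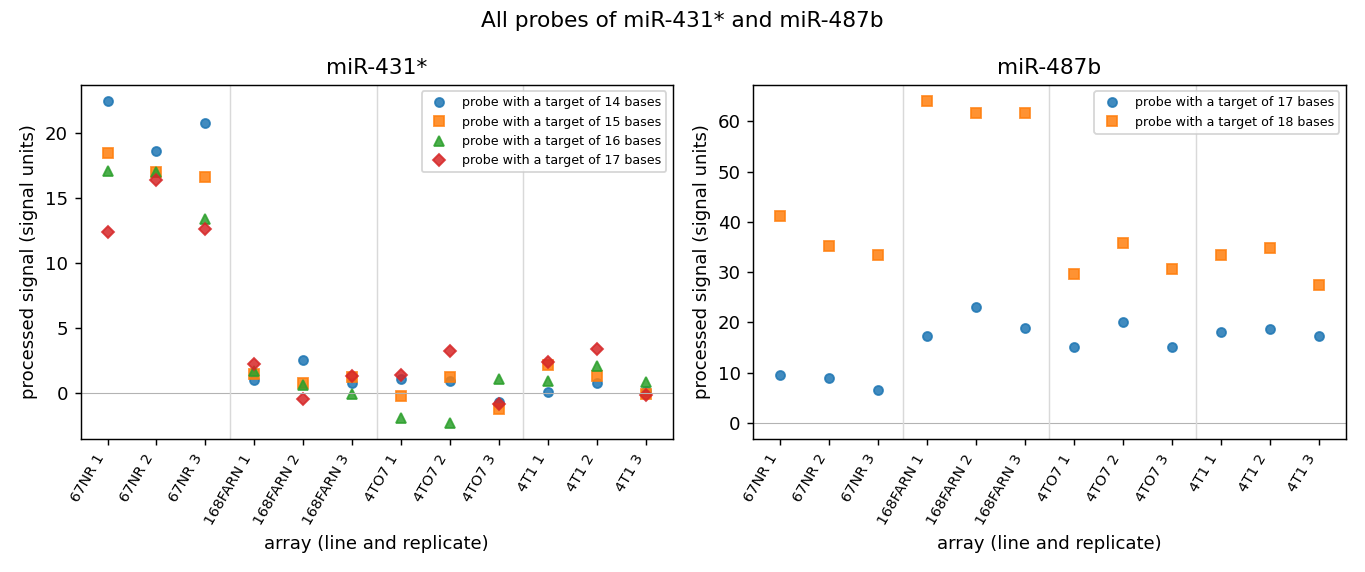
Processed signal (vertical axis, signal units) of each probe of miR-431* (left, 4 probes) and miR-487b (right, 2 probes) on the 12 arrays (horizontal axis). All 4 probes of miR-431* stand at 12.4 to 22.5 on the arrays of 67NR and at 3.41 or lower elsewhere, while the 2 probes of miR-487b differ in the order of the lines.

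The tested miRNAs outside the region whose pattern over the 4 lines was most like that of a member were found by the root mean square distance between the 4 line means (scaled log2, each miRNA centred on its own mean). Closest to miR-494 were miR-1224 (0.135), miR-202-3p (0.140) and miR-574-5p (0.159). Closest to miR-487b were miR-26a (0.187), miR-202-3p (0.266) and miR-9* (0.274). The distance between miR-487b and miR-494 themselves was 0.222, so for each of the pair at least 1 miRNA from elsewhere was closer than the other. Here the smallest of many distances is set against a single one, so this does not tell whether the pair vary together. Closest to miR-431* were miR-423-3p (0.00551), miR-290-5p (0.0220) and miR-542-5p (0.0651). For all 3, 67NR was the only line in which every array was read. The floor fixes their values in the other 3 lines. With no scaling 0 of the 3 named for miR-494 and 0 of the 3 named for miR-487b were still among the closest, and with quantile normalization 0 of those for miR-494. Of the 3 named for miR-487b 1 was still among the closest with normexp, with all probes averaged, with the gene-level total signal, or with the floor doubled or halved. Of those for miR-431* 1 was with normexp or the mean of all probes, and 0 with the gene-level total signal or with outlier spots kept.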

How the data were processed

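Per the file headers, the deposited files are spot tables of 12 one-colour arrays read by Agilent Feature Extraction 10.2.1.3, with target positions in build mm9, and the authors' intensity values are processed signals after subtraction of a spatially detrended background, with no scaling between arrays. The series' value table holds the same numbers (largest difference 0). The 0 or 1 flags for spots well above background and for outliers are the software's, as deposited.

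From these, control spots and 284 to 508 flagged spots per array were left out and the spots of a probe averaged. Signals were divided by the 75th percentile, on that array, of the 170 probes read everywhere. Values under 0.0209 were raised to it, which is the median over arrays of the lowest scaled value read, and log2 was taken. The brightest probe stood for a miRNA. limma 3.58.1 in R 4.3.3 (with the data.table package, version 1.17.8) fitted the 4 lines to the 225 miRNAs read on all 3 arrays of at least 1 line, with 8 residual degrees of freedom. The number of arrays, 3 a line, limits the precision: the median SE of a difference of 2 lines was 0.0532 (log2). A lower bound on a fold sets the brighter line's mean against the lowest level read on each array of the dimmer line, or the floor where that is higher.

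The members, marker lists and alternatives were chosen with earlier results of these data known. All members were named, along with region miRNAs that were read and the 3 miRNAs most like each tested member; miR-134, miR-882 and miR-544 were named after their values or positions were seen. Mature sequences came from RefSeq (GRCm38.p6), matched by the spacing of targets along the chromosome.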

Additional observations from a re-analysis of the deposited data

How the results depend on the processing

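Among the members' results with a difference other than 0, 402 values under the alternatives kept the direction and the side of the threshold, 39 kept the direction without passing the test, 12 turned and 1 became 0 (miR-487b in 4T1 against 67NR with the second probe). The 3 comparisons in which miR-431* was at the floor on both sides are not counted. Its comparisons that involve 67NR are counted. Among the 402 they gave 25 values for 4T1 against the mean and 22 for 4T1 against 67NR. They gave 23 for 4TO7 against 67NR and 24 for 168FARN against 67NR. As its p-values there are not evidence of a difference, these kept calls are not either. The number of members called moved with the scaling: with none it was 1 for 4T1 against the mean, 1 against 67NR and 0 against 4TO7, and 1 for 4TO7 against 67NR. The median ratio, chosen after seeing the data, gave 1 for 4TO7 against 67NR. A doubled floor gave 1 for 4T1 against 4TO7 and 2 in place of 3 for 4T1 against the mean. The second brightest probe, also chosen afterwards, gave 1 for 4T1 against 168FARN. For 4TO7 against 168FARN the count of 2 fell to 1 with the percentile of all probes, quantile normalization, normexp, the mean of all probes, flagged spots kept, a doubled floor, the median ratio, the second slide alone or only the lines compared, and to 0 with the gene-level total signal, no filter or the second probe; leaving out 1 array gave 0 to 2. The cause was not tested.

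Directions that turned were those of miR-487b in 168FARN against 67NR (0.054 with the percentile of all probes, 0.78 with no scaling, 0.14 with the second probe, 0.43 with the median ratio), in 4TO7 against 168FARN (0.18 with normexp, 0.19 with the second probe) and in 4TO7 against 67NR (0.33 with the second probe, 0.027 with the median ratio). miR-494 turned in 168FARN against 67NR (0.25 with no scaling), 4TO7 against 168FARN (-0.46 with no scaling) and 4TO7 against 67NR (0.0090 with the median ratio). miR-431* in 4T1 against the mean became 0.28 with flagged spots kept, through the 1 outlier spot.

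The replicate numbers did not pair the arrays, since same-numbered arrays of different lines deviated from their line means with correlations from -0.78 to 0.51 over 18 pairs. With the replicate number as a block no call of a member changed: 4T1 against the mean kept 3, with adjusted p = 1.46e-05 for miR-487b and 7.58e-08 for miR-494, and 4TO7 against 168FARN kept 2, with 0.0455 for miR-487b. Calls of members as read numbered 12 for miR-494 under each rule, and 10 in place of 12 for miR-487b and 2 in place of 3 for miR-431* when the share was taken over the spots of all probes. Signal over background limits miR-431* and miR-487b, and no order of lines can be read for the unread members.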
